A study of Rattus norvegicus with 12 samples.

Results

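The comparison described here set FLS treated with TCDCA at 1 µM (AT1) against FLS treated with TCDCA at 0.1 µM (AT01), 3 libraries in each group, 6 of the 12 libraries of the series. Its members were all libraries that the labels place in those groups, and both groups received the drug, so the comparison asks what changed when its concentration was raised 10-fold within the lower part of the dose range. FLS are the fibroblast-like cells of the joint lining, here grown from synovium of male Sprague Dawley rats in which complete Freund's adjuvant had been injected into a hind paw (adjuvant arthritis, AA), and used at the third passage after 12 h of treatment. The other groups of the same design were FCA, cells of AA rats kept in DMEM without TCDCA, and AT10, treated with 10 µM. They enter below only as levels beside those of AT1 and AT01. The study describes the 3 libraries of a group as repeats, without saying how many rats or which cultures stood behind each, so each p-value measures the spread between libraries, which may be technical.

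TCDCA is the taurine conjugate of chenodeoxycholic acid, a primary bile acid. Bile acids act in cells through nuclear receptors and through the membrane receptor TGR5 (gene Gpbar1), which raises cAMP, and the glucocorticoid receptor (Nr3c1) has been proposed as another target of TCDCA. In arthritis, FLS secrete the matrix, matrix-degrading proteases, chemokines and interleukins of the inflamed joint lining. The labelled cell type was checked against markers. Of 19 synovial fibroblast markers in the table, 15 passed the filter on low values, while Dpp4, Pi16, Htra4 and Clic5 did not. General fibroblast genes were high, with Vim (vimentin) between 2501.31 and 2873.51 FPKM over the 6 libraries, Dcn (decorin) between 1275.91 and 1372.94 FPKM and Thy1 between 112.46 and 146.29 FPKM. Markers of macrophages and leukocytes summed to between 7.09 and 21.33 FPKM against fibroblast marker sums between 11633 and 12238 FPKM, and 14 of 17 leukocyte marker records stayed under 1 FPKM in every one of the 6 libraries, with Aif1, Cd3d and Cd3e listed at 0 throughout. Adipocyte markers were present too (14 of 17 passed the filter, Lpl between 51.46 and 64.84 FPKM), so passing the filter does not single out FLS. In bulk RNA, fewer cells of a type and less RNA per cell cannot be told apart.

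Expression was available as FPKM, fragment counts scaled to exon length and to the number of mapped fragments, for 22442 gene records. The 11611 records that averaged 1 FPKM or more across the 12 libraries were tested. A record is a locus assembled by StringTie or an Ensembl gene, and a gene name can belong to more than 1 record. Each library of the pair held between 11471 and 11674 records of at least 1 FPKM. The reads behind a single FPKM value are not known, so no counting error is given. Differences are of log2(FPKM + 1), AT1 minus AT01, which understates the change of genes of low level.

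Differences between the 2 concentrations were small across most of the transcriptome. The median difference was 0.02 on the log2 scale, 95% of records lay between -0.62 and 0.58, and 93.2% lay within 0.5 of 0. Libraries of the same group correlated at 0.926 to 0.947 across records over 6 combinations, and libraries of the 2 different groups at 0.932 to 0.95 over 9 combinations, so that the ranges within and between doses overlapped. These correlations are across genes, which are not independent replicates.

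Under the criterion of the study (p under 0.05 without adjustment, together with a log2 fold change beyond 1 in either direction), applied to limma p-values, 66 of 11611 records differed, which is 0.568%. With an F test like that of Ballgown, the package used by the study, the count was 28. Of the 66 records from limma, 33 (0.284%) were higher in AT1 and 33 (0.284%) were lower. Under a Benjamini-Hochberg adjusted p under 0.05 in limma, 15 records (0.129%) differed, 9 higher in AT1 and 6 lower. Of the 15, 11 also met the criterion of the study and 4 had log2 fold changes under 1 (Bnip3, Ppp2r5a, Cyr61 and Manf). In 999 records (8.6%), all AT1 values lay on 1 side of all AT01 values, above them in 564 records and below them in 435. A random order of 3 and 3 libraries separates the groups with probability 0.1, so lack of overlap alone does not mark a difference between doses. The 15 adjusted calls became 24 without AT01 replicate 1, 25 without AT01 replicate 3, 2 in a fit over all 12 libraries, 2 with the replicate number as a block and 0 (386 at unadjusted p under 0.05) once records at 2 separate levels, defined further on, were set aside. Leaving out AT1 replicate 1 reduced the 33 higher records under the criterion of the study to 21.

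**Figure D1:**
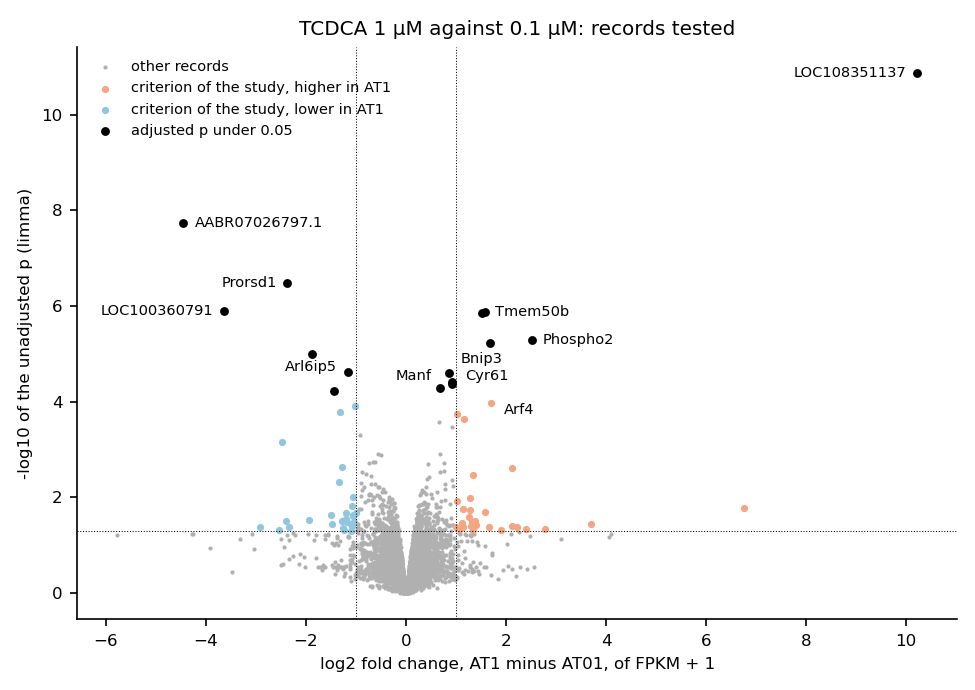
Each point is 1 of the 11611 records tested, with the log2 fold change of AT1 against AT01 on the horizontal axis and -log10 of the unadjusted limma p on the vertical axis. The 15 black points have an adjusted p under 0.05, the 66 records meeting the criterion of the study lie outside the vertical dotted lines and above the horizontal one, and LOC108351137 stands alone at 10.22.

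Among the 15, 7 records were not split into 2 separate levels over the series, and 5 of those are known genes whose main record carried the difference. Bnip3 encodes a mitochondrial outer membrane protein of the BCL2 family, induced in hypoxia and active in mitophagy. Its level was 47.35, 42.23 and 43.54 FPKM in AT1 and 24.36, 23.79 and 24.19 FPKM in AT01. Every AT1 library was above every AT01 library, at 1.84 times the AT01 mean, with a log2 fold change of 0.85 (SE 0.07, limma adjusted p = 0.0267). The FCA libraries, at 43.57, 41.44 and 41.23 FPKM, lay at the AT1 level, as did 2 of the AT10 libraries at 47.83 and 50.23 FPKM, with the third at 33.83 FPKM. Among the 4 groups, AT01 was thus the one that stood apart for Bnip3.

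Cyr61 encodes a secreted matricellular protein that binds integrins and is a classical target of YAP and TEAD. It stood at 391.26, 421.18 and 375.36 FPKM in AT1 and at 192.69, 218.35 and 213.01 FPKM in AT01, 1.9 times as high in AT1. The groups were far apart relative to their spread, with a log2 fold change of 0.93 (SE 0.08, limma adjusted p = 0.0389). The untreated libraries lay on both sides, at 464.64, 255.17 and 457.74 FPKM, and so did those of AT10, at 235.2, 490.23 and 181.88 FPKM. Ctgf, of the same protein family and with the same upstream factors, had 786.66, 649.42 and 680.6 FPKM in AT1 against 548.72, 678.03 and 655.55 FPKM in AT01. Its groups overlapped, and the log2 difference of 0.17 (95% interval -0.13 to 0.47) did not pass the test. Over the series the Ctgf record was split into 2 separate levels, with AT10 libraries (190.01 and 141.59 FPKM) at the low one.

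Manf encodes a soluble protein of the endoplasmic reticulum that is secreted when protein folding is disturbed. It measured 227.28, 240.5 and 224.62 FPKM in AT1 and 143.25, 141.17 and 147.62 FPKM in AT01. The difference of 0.68 on the log2 scale (SE 0.06, limma adjusted p = 0.043) was the smallest of the 15, carried by libraries that were close together in both groups. In FCA the values were 155.94, 254.19 and 134.55 FPKM and in AT10 246.21, 134.28 and 155.72 FPKM, so that in each of these groups 1 library lay at the AT1 level and the others near AT01. Hspa5, the major chaperone of the same compartment, gave 287.04, 445.19 and 307.33 FPKM in AT1 against 438.64, 279.37 and 257.59 FPKM in AT01, with overlapping groups (log2 difference 0.105, unadjusted p = 0.707). Hspa5 was chosen after its values were seen, as the best known gene of the response to which Manf belongs.

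Ppp2r5a encodes a regulatory subunit of protein phosphatase 2A. Its values were 10.72, 10.89 and 11.07 FPKM in AT1 against 5.68, 4.76 and 5.39 FPKM in AT01, which gives 0.92 on the log2 scale (SE 0.08, limma adjusted p = 0.0368). Among FCA libraries 2 were near 10 FPKM (9.86 and 10.18) and 1 was at 5.49 FPKM, and in AT10 the values were 11.86, 6.8 and 11 FPKM.

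Arl6ip5 ran the other way. It encodes a membrane protein of the endoplasmic reticulum that binds ARL6 and modulates glutamate transport. AT1 libraries had 48.15, 42.81 and 41.62 FPKM and AT01 libraries 105.14, 104.17 and 91.55 FPKM, so that the AT1 mean was 0.441 of the AT01 mean (log2 fold change -1.16, SE 0.09, limma adjusted p = 0.0267). FCA (62.01, 77.17 and 93.55 FPKM) and AT10 (91.1, 71.31 and 97.02 FPKM) libraries were all above the highest AT1 value. Here AT1 was the lowest group. On the log2 scale, 1 FCA library (62.01 FPKM) lay on the AT1 side of the midpoint of the gap between AT1 and AT01.

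The last pair of the 7 were minor records of their genes. Pdzrn3, a ubiquitin ligase, was represented by a record at 0.3, 0.23 and 0.15 FPKM in AT1 and 4.23, 3.37 and 3.03 FPKM in AT01 (log2 fold change -1.88, limma adjusted p = 0.0129). Its main record was read at 75.5, 76.7 and 82.39 FPKM in AT1 and 39.96, 74.52 and 56.32 FPKM in AT01, and the sum over both records had a log2 difference of 0.41, in the other direction. Ctdsp1, a phosphatase of the RNA polymerase tail, had 0.19, 0 and 0 FPKM in AT1 against 1.55, 1.92 and 2.2 FPKM in AT01 in its minor record (log2 fold change -1.44, limma adjusted p = 0.0465), while its main record lay between 33.32 and 39.37 FPKM in all 6 libraries. In both genes the difference belonged to a small record and not to the bulk of the gene's reads.

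Sequences upstream of the start sites were looked up for the 5 genes above whose main record carried the difference. They come from RefSeq (rat build GRCr8) by gene symbol, and the build of the deposited records is not given in the sources used here. Of these genes 4 of 5 matched. Manf did not, so no Manf window was searched for any motif. Each run is the 250 bases before the annotated start, 5′ to 3′ on the gene's strand, with matches to the searched motifs in capitals. Bnip3 (chr1:203154963-203155212, minus strand), Cyr61 (RefSeq symbol Ccn1, chr2:237225690-237225939, minus strand) and Arl6ip5 (chr4:131371883-131372132, plus strand) read as follows.
Bnip3: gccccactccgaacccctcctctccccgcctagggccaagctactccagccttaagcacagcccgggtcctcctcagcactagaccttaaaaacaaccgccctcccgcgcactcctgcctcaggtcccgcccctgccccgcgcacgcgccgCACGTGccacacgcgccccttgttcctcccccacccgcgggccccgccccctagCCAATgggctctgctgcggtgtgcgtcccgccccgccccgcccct
Cyr61: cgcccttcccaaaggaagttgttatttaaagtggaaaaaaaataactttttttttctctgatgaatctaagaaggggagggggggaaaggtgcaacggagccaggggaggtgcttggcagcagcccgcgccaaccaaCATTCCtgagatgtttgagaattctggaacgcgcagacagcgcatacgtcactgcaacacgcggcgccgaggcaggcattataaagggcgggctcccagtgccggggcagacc
Arl6ip5: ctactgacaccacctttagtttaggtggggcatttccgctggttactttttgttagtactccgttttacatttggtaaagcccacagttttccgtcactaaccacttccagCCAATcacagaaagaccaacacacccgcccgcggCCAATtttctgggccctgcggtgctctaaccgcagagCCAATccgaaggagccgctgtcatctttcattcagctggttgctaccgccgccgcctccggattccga
The motifs searched on both strands were the hypoxia response element core ACGTG, the TEAD element GGAATG, the AP-1 site TGAGTCA, the cAMP response element TGACGTCA, the CCAAT box and the endoplasmic reticulum stress response element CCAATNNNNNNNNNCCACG, which contains a CCAAT box. ACGTG was found in the Bnip3 window on both strands, as overlapping matches starting 99 and 98 bases before the start site, and in 16.9% of 27456 rat promoters of the same length. GGAATG was found once in the Cyr61 window, on the opposite strand, starting 113 bases before the start site, and in 11.8% of all promoters. CCAAT occurred 3 times in the Arl6ip5 window, at -139, -105 and -68, and once in that of Bnip3, at -45, and was present in 34.3% of all promoters. The Ppp2r5a window (chr13:105506768-105507017, minus strand, 81.2% G or C) held none of these letters. TGAGTCA (3.98% of all promoters), TGACGTCA (1.7%) and the stress response element (0.0765%) were in none of the 4 windows. A match describes the letters of a window and is not evidence of binding.

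The other 8 of the 15 were records at 2 separate levels over the series, meaning that the 12 libraries fell into a low and a high set, with a log2 gap of 1 or more between them exceeding the range inside either set. Such records made up 4.52% of all records tested (525) and 42.4% of those meeting the criterion of the study (28 of 66). Both the criterion and the definition of 2 levels ask for a large log2 difference. A higher share among the 66 thus follows in part from the definitions. LOC108351137, annotated as a glyceraldehyde-3-phosphate dehydrogenase, was the extreme case. It was read at 1166.15, 1257.69 and 1155.12 FPKM in AT1 and listed at 0 in all 3 AT01 libraries (limma adjusted p = 1.56e-07). It was as high in FCA (1221.52, 1284.88 and 1228.59 FPKM) and also listed at 0 in all AT10 libraries, so its levels did not follow the order of the doses. Gapdh itself, the glycolytic enzyme of the same name, was read at 388.82, 368.61 and 443.9 FPKM in AT1 and 440.19, 373.64 and 346.49 FPKM in AT01, with overlapping groups and a log2 difference of 0.05 (SE 0.12). Both records carry the description of the same enzyme. Their sequences were not compared, and how reads were divided between them was not tested. No fold is given against a group listed at 0.

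The remaining records at 2 levels included genes of moderate expression. Tmem50b, a membrane protein of the secretory pathway, had 13.04, 12.31 and 11.59 FPKM in AT1 and 3.29, 3.44 and 3.61 FPKM in AT01 (log2 fold change 1.58, limma adjusted p = 0.00275). Wbp1l, a WW domain binding protein, had 50.03, 52.58 and 49.25 FPKM against 17.47, 15.76 and 17.72 FPKM (log2 fold change 1.52, limma adjusted p = 0.00275). The 3 libraries of each group were tightly grouped for both genes, yet FCA held both levels for each of them: Tmem50b at 13.2, 11.93 and 3.92 FPKM and Wbp1l at 50.94, 52.86 and 9.3 FPKM. In AT10 Tmem50b was low throughout (3.04 to 3.5 FPKM) and Wbp1l was at 15.08, 10.98 and 49.18 FPKM. Tssc4, a factor of spliceosome assembly, was at 18.29, 16.97 and 16.64 FPKM in AT1 and at 4.74, 5.35 and 4.05 FPKM in AT01 (log2 fold change 1.68, limma adjusted p = 0.00859). Phospho2, a phosphatase, was at 10.46, 8.35 and 9.16 FPKM in AT1 and at 0.57, 0.71 and 1.17 FPKM in AT01 (log2 fold change 2.52, limma adjusted p = 0.00848). AT10 libraries lay on the AT1 side in 3 of 3 cases for Phospho2 and in 2 of 3 for Tssc4, and FCA libraries in 2 of 3 for Phospho2 (0.82, 8.68 and 8.68 FPKM) and in 0 of 3 for Tssc4 (4.04, 4.97 and 7.33 FPKM).

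Lower in AT1 at 2 levels were Prorsd1, LOC100360791 and AABR07026797.1. Prorsd1, which resembles the editing domain of prolyl-tRNA synthetase, was nearly silent in AT1 (0.02, 0.09 and 0 FPKM) and read at 4.47, 4.58 and 4.15 FPKM in AT01 (log2 fold change -2.38, limma adjusted p = 0.00128). All FCA and AT10 libraries were on the AT01 side, between 3.29 and 4.53 FPKM, so AT1 was alone at the low level. LOC100360791, a copy of the translationally controlled tumor protein, was listed at 0 in AT1 and at 12.29, 8.77 and 14.15 FPKM in AT01 (limma adjusted p = 0.00275). AABR07026797.1, without a description, was listed at 0 in AT1 and at 24.1, 19.77 and 19.83 FPKM in AT01 (limma adjusted p = 0.000107). The last 2 were also listed at 0 in some FCA and some AT10 libraries.

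**Figure D2:**
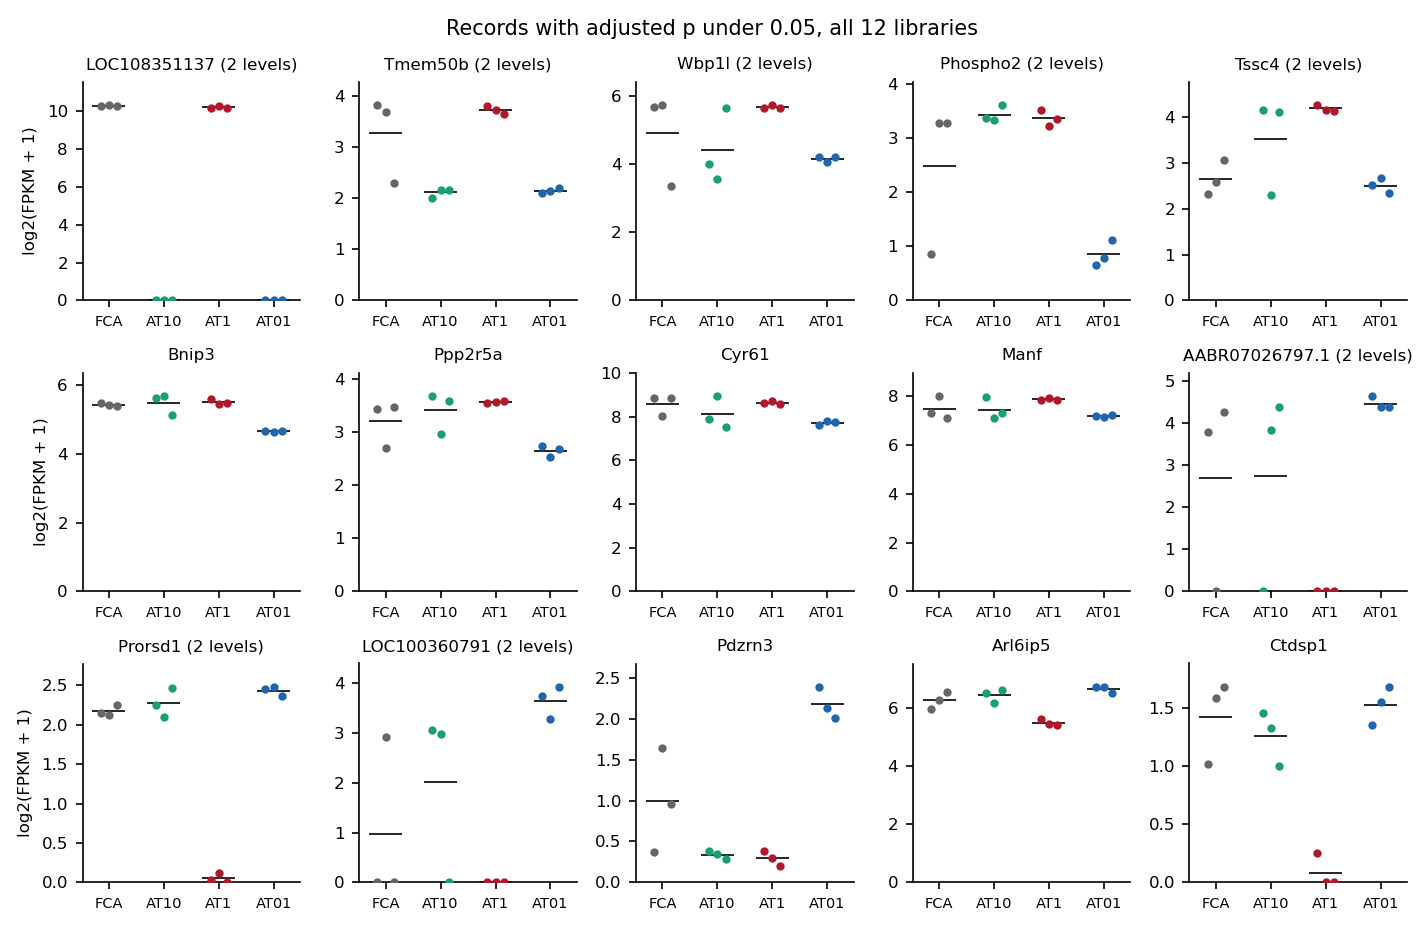
Every panel is 1 of the 15 records with an adjusted p under 0.05, with log2(FPKM + 1) of each of the 12 libraries as points by group and the group mean as a bar. In each panel the AT1 and AT01 points do not overlap, while FCA or AT10 often spans both levels, as in Tmem50b and Wbp1l.

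Across the 15, the levels of FCA and AT10 fell on either side. Taking the midpoint of the gap between AT1 and AT01 as a divide, all 3 FCA libraries fell on the AT1 side in 2 records, all on the AT01 side in 3, and on both sides in 10. For AT10 the counts were 3, 5 and 7. Over the 999 records without overlap between AT1 and AT01, FCA was split in 521 and AT10 in 587. For the exact two-sided permutation test of a single gene, 3 libraries against 3 cannot give less than p = 0.1, which was the value for each of the 15.

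Beyond these, 10 records per direction of largest change that met the criterion of the study, did not overlap and were not at 2 levels were examined. Arf4, a small GTPase of vesicle transport at the Golgi, was the highest expressed named gene among the higher ones apart from a mitochondrial record. It stood at 325.78, 220.79 and 344.21 FPKM in AT1 and at 87.33, 93.25 and 86.33 FPKM in AT01, 3.34 times as high (log2 fold change 1.70, SE 0.18, limma adjusted p = 0.0784). FCA held 1 library at 302.11 FPKM and 2 near the AT01 level (89.42 and 105.61), and AT10 lay between 94.05 and 115.37 FPKM. St6galnac4, a sialyltransferase, had 34.47, 39.73 and 38.38 FPKM against 14.98, 19.93 and 14.27 FPKM (log2 fold change 1.16, limma adjusted p = 0.133), with all FCA libraries at the AT1 level (36.74 to 40.16 FPKM) and AT10 between 12.42 and 22.01 FPKM.

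The others were of lower level or wider spread, and their limma adjusted p was between 0.846 and 1. Fzd7, a Wnt receptor, had 3.2, 2.62 and 2.41 FPKM in AT1 and 1.07, 0 and 0.56 FPKM in AT01. Msrb3, which repairs oxidised methionine, had 33.56, 32.85 and 35.68 FPKM against 27.85, 8.63 and 10.05 FPKM. In both the AT1 libraries lay close together and the AT01 libraries were spread, with 1 of them near the AT1 level for Msrb3. Marcks (log2 fold change 1.40), Trib2 (1.28), Mcfd2 (1.15) and Rn50_17_0381.1 (2.12) also belonged to the group, with unadjusted p between 0.00248 and 0.0372. The Mcfd2 record was a minor one: summed over both records of the gene the log2 difference was -0.17. A record named Mt-cyb (cytochrome b) ranged from 7.96 to 2543.4 FPKM within AT1 alone and from 0 to 1.66 FPKM in AT01. Mitochondrially encoded records together varied from 855.71 to 2573.7 FPKM in AT1 and from 9.19 to 1965.4 FPKM in AT01, and their part in that result was not tested.

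Lower in AT1, besides Pdzrn3, Arl6ip5 and Ctdsp1, were Ptrhd1, Tada2b, Foxj2, Coa3, RGD1564606 and 2 unnamed records. Ptrhd1, a peptidyl-tRNA hydrolase domain protein, had 4.65, 3.24 and 3.62 FPKM in AT1 and 12.82, 10.33 and 9.82 FPKM in AT01 (log2 fold change -1.31, limma adjusted p = 0.108). Tada2b, a subunit of the SAGA histone acetylation complex, had 0.03, 1.92 and 0.85 FPKM against 8.67, 8.81 and 9.23 FPKM (log2 fold change -2.48, limma adjusted p = 0.331). Coa3, an assembly factor of cytochrome c oxidase, was at 17.04, 0.73 and 0.28 FPKM in AT1 and between 17.54 and 19.96 FPKM in AT01, so 1 AT1 library came close to the AT01 range. Foxj2, a forkhead factor (log2 fold change -1.28), and RGD1564606, a relative of ribosomal protein L23a (-1.28), were lower with unadjusted p of 0.00234 and 0.0306. The Foxj2 record was a minor one. The gene's main record overlapped, at 5.12, 5.92 and 4.51 FPKM in AT1 and 5.22, 4.35 and 5.27 FPKM in AT01.

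A ribosomal RNA record was lower in AT1 as well. Rn5-8s, the 5.8S RNA, was read at 180.02, 232.55 and 134.78 FPKM in AT1 and at 579.23, 340.7 and 261.49 FPKM in AT01, and the unnamed record with the next number, MSTRG.5792, at 97.36, 130.54 and 85.68 against 339.45, 172.79 and 308.15 FPKM (log2 fold changes -1.06 and -1.34, unadjusted p = 0.0233 and 0.0048). In FCA Rn5-8s was between 24.19 and 58.81 FPKM, and in AT10 it was at 29.94 and 22.34 FPKM in 2 libraries and at 228.72 FPKM in the third. Ribosomal RNA carries no poly(A) tail, and the libraries had been prepared from poly(A) RNA. The level of this record differed between the groups whose genes are compared here, and its part in the other differences was not tested.

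**Figure D3:**
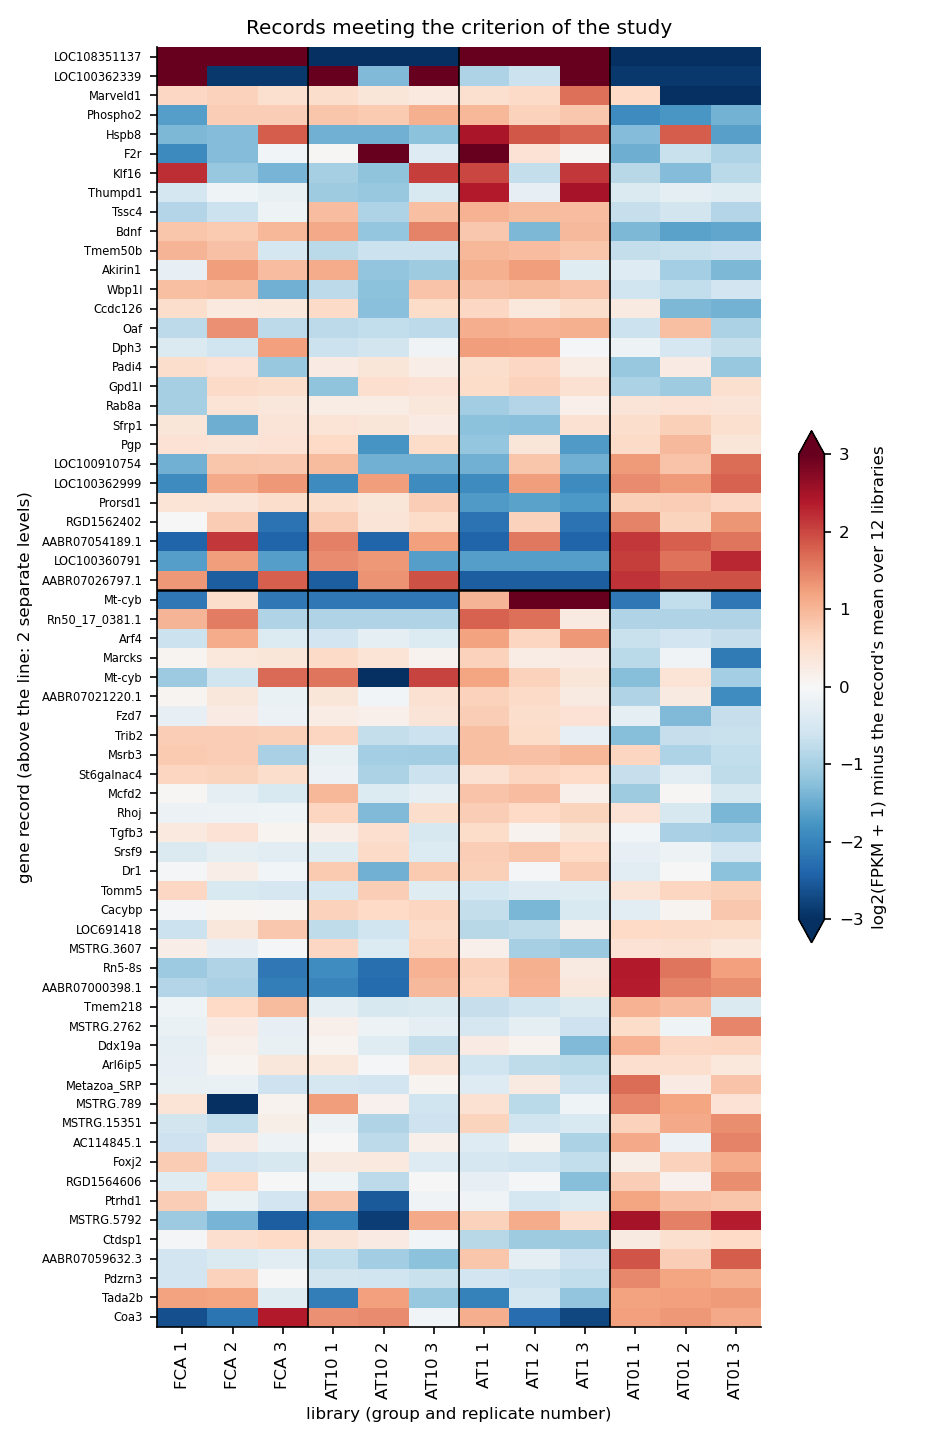
Rows are the 66 records meeting the criterion of the study and columns the 12 libraries, with colour giving log2(FPKM + 1) minus the mean of the record over all libraries. The 28 records above the line have 2 separate levels, and in some of them, such as Tmem50b and Wbp1l, the FCA libraries are found at both levels, while Rn5-8s and MSTRG.5792 are highest in AT01.

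To see whether known processes moved together, 46 gene lists were read, from matrix and inflammation to growth and core machinery. They held 1136 distinct genes tested. Of these, 42 genes (3.7%) had an unadjusted p under 0.05, 28 higher and 14 lower in AT1, beside 398 of all 11611 records (3.43%), 200 higher (1.72%) and 198 lower (1.71%). The share in the lists was thus near that of all records. Leaving out 1 library moved the 42 to between 26 (without AT1 replicate 3) and 68 (without AT01 replicate 3), and without the latter library the count over all records was 514. Of the 1136 genes, 3 had an adjusted p under 0.05 (Cyr61, Bnip3 and Manf) and 7 met the criterion of the study, and 15 lists had no gene under 0.05. Medians ran from -0.26 for the chemokines to 0.14 for the proteoglycans and matricellular proteins, beside 0.02 over all records.

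Matrix genes lay slightly above 0 at the higher concentration. Of 21 collagen chains tested, 20 had a positive difference (median 0.11), beside 55.9% of all records, and 3 had an unadjusted p under 0.05, all higher in AT1. Col3a1, a fibrillar chain, was at 905, 911.39 and 915.05 FPKM in AT1 and at 740.63, 814.75 and 844.9 FPKM in AT01 (log2 difference 0.19, unadjusted p = 0.0475). Col5a2, which joins the same fibrils, was at 345.44, 336.48 and 317.46 against 308.55, 284.55 and 289.13 FPKM (0.18, unadjusted p = 0.0445), and Col6a3, of the microfibrils around cells, at 10.91, 10.31 and 11.1 against 9.01, 8.76 and 9.56 FPKM (0.22, unadjusted p = 0.0208). Of these 3 Col6a3 had the largest ratio of means, 1.18, and none passed with adjustment (limma adjusted p = 1 for each). Col1a1, the main chain of type I collagen, overlapped between the groups (816.55 to 852.57 against 720.79 to 904.23 FPKM). The median of the 21 chains, relative to each record's mean, was between 0.045 and 0.078 in AT1 and between -0.08 and -0.023 in AT01, with FCA between 0.071 and 0.188 and AT10 between -0.316 and 0.005.

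Integrin subunits, the receptors that bind collagen and fibronectin, were above 0 in 13 of 13 (median 0.11), and 2 had an unadjusted p under 0.05. Itga4 was at 2, 2.12 and 2.19 FPKM in AT1 against 1.67, 1.65 and 1.51 FPKM in AT01, and Itga6 at 13.02, 13.56 and 13.3 against 11.06, 11.69 and 12.27 FPKM. A second Itga4 record, at 0.93, 0.82 and 0.99 against 0.6, 1.2 and 0.98 FPKM, had overlapping groups. Proteoglycans and matricellular proteins were above 0 in 24 of 30, with Cyr61 and Spp1 under 0.05. Spp1 (osteopontin) was at 1658.81, 1573.86 and 2222.46 FPKM in AT1 and at 1186.45, 1568.34 and 1202.28 FPKM in AT01, where 1 AT01 library nearly reached the lowest AT1 library (log2 difference 0.46, unadjusted p = 0.0462). All genes in 1 library share its depth and composition, so the members of a list are not independent.

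In matrix breakdown, of 22 metalloproteinases and inhibitors, 16 were above 0 (median 0.04), and Adamts9 was lower in AT1 with unadjusted p = 0.0112. This Adamts9 record was at 0.88, 1.13 and 1.08 FPKM in AT1 and at 2.01, 1.42 and 1.98 FPKM in AT01. A second Adamts9 record, at 1.74, 1.3 and 1.52 against 1.31, 1.44 and 1.37 FPKM, had overlapping groups. The collagenase Mmp13 (66.27 to 88.25 against 56.33 to 98.47 FPKM), the stromelysin Mmp3 (474.99 to 579.53 against 451.8 to 533.34 FPKM) and the inhibitor Timp1 (844.08 to 971.95 against 1015.99 to 1072.15 FPKM) had log2 differences of 0, 0.11 and -0.17. The groups did not overlap for Timp1, whose unadjusted p was 0.0911. These 3 were chosen after their values were seen, as proteins known in arthritis. Hyal3, a hyaluronidase, was higher in AT1 (log2 difference 0.24, unadjusted p = 0.049). Collagen processing enzymes and contractile genes had no gene under 0.05.

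TGF-beta signalling was above 0 in 18 of 25 genes (median 0.10), with 2 genes under 0.05. The median was 0.03 without AT1 replicate 3 and 0.048 without AT01 replicate 2. Tgfb3, a ligand of the family, was at 59.73, 43.8 and 52.68 FPKM in AT1 and at 38.26, 20.26 and 19.57 FPKM in AT01, 2 times as high (log2 difference 1.03, unadjusted p = 0.0117, limma adjusted p = 1). FCA lay between 43.22 and 55.3 FPKM, at the AT1 level. The receptor Acvr1 was at 19.12, 20.51 and 19.45 against 15.22, 17.62 and 16.81 FPKM (0.24, unadjusted p = 0.0244). The sister ligands Tgfb1 (0.10) and Tgfb2 (0.12) and the receptors Tgfbr1 (0.11) and Tgfbr2 (-0.09) did not pass the test. Among Wnt genes, Fzd7 was higher and the secreted inhibitor Sfrp1 lower in AT1, at 2.46, 2.42 and 10.29 against 10.79, 12.44 and 10.46 FPKM (unadjusted p = 0.0441). Sfrp1 was at 2 levels, and 1 AT1 library lay beside the AT01 libraries. No gene of the BMP, IGF or PDGF and FGF lists was under 0.05.

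**Figure D4:**
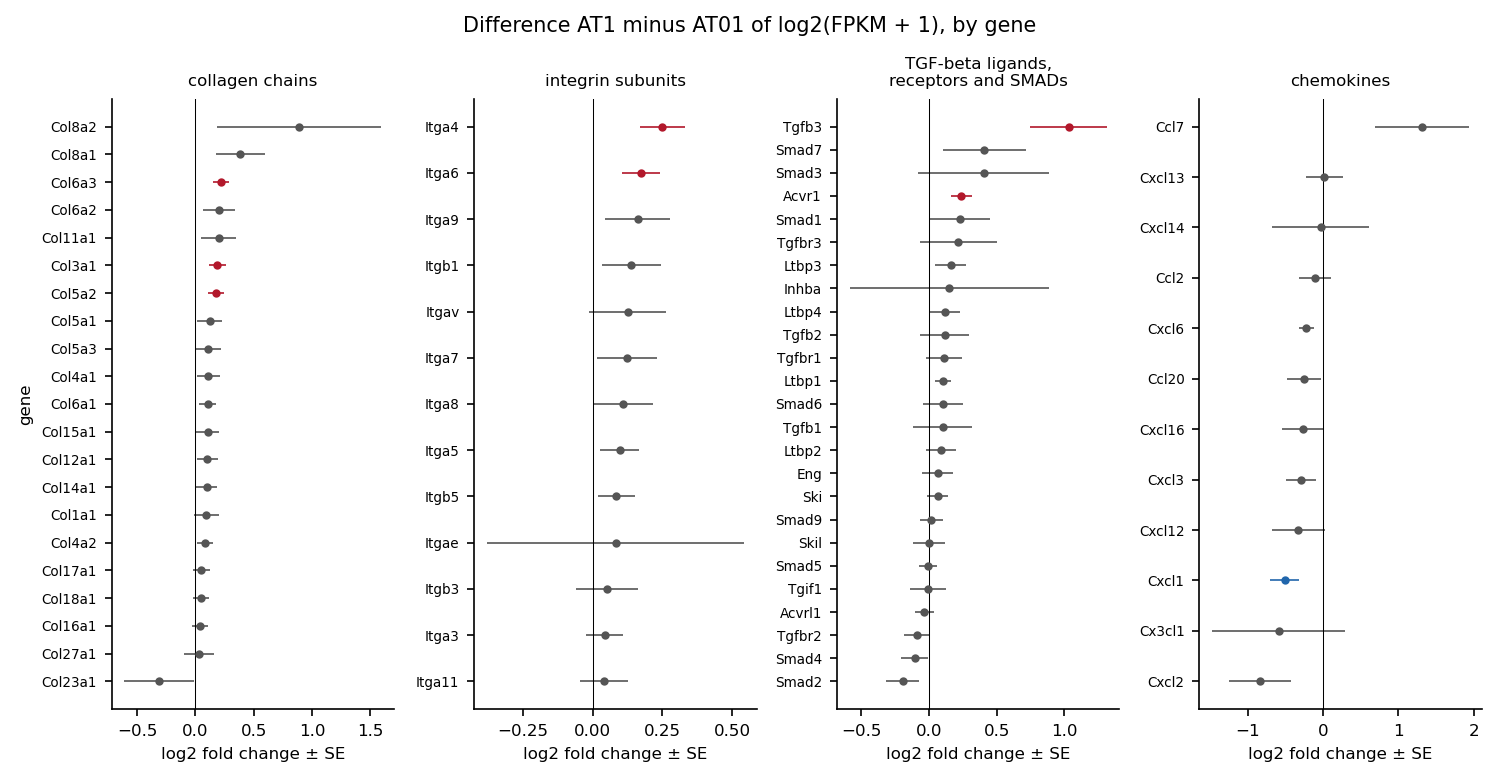
Points are the log2 fold changes of AT1 against AT01 for the tested genes of 4 lists, with bars for the standard error from limma and colour for an unadjusted p under 0.05 (red higher, blue lower in AT1). Collagens and integrins lie mostly between 0 and 0.25, while 10 of the 12 chemokines lie below 0.

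Chemokines, which call leukocytes into the joint, leaned the other way. Of 12 tested, 10 had a negative difference, and Cxcl1, a neutrophil attractant, was lower in AT1 with an unadjusted p under 0.05. It was at 414.31, 410.94 and 322.68 FPKM in AT1 and 701.3, 472.33 and 479.31 FPKM in AT01, 0.694 of the AT01 mean (log2 difference -0.51, SE 0.19, unadjusted p = 0.0409, limma adjusted p = 1). Its FCA libraries ranged from 441.22 to 996.45 FPKM and its AT10 libraries from 384.43 to 978.47 FPKM. Cxcl6 (-0.22, unadjusted p = 0.0693) and Cxcl2 (-0.83, unadjusted p = 0.092) did not pass. Ccl2, the monocyte attractant, was at 1704.87, 1345.77 and 1336.94 FPKM against 1570.22, 1207.34 and 2000.23 FPKM. Ccl7 had the opposite sign, at 872.93, 1026 and 724.34 FPKM in AT1 and 262.58, 927.52 and 171.99 FPKM in AT01 (1.31, unadjusted p = 0.083), with AT01 libraries far apart from each other. The median of the 12 chemokines was between -0.206 and 0.005 in AT1 and between 0.058 and 0.134 in AT01, relative to each record's mean. In FCA it ran from -0.249 to 0.129 and in AT10 from -0.039 to 0.774, so the spread within each of these groups was wider than the gap between AT1 and AT01.

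Among other mediators of inflammation, Il6 was at 193.76, 109.33 and 173.85 FPKM in AT1 and 147.85, 125.3 and 178.08 FPKM in AT01 (log2 difference 0.05, unadjusted p = 0.84), and Ptgs2, the inducible cyclooxygenase, had a difference of -0.02. Both were chosen for their known role after their values were seen. The lists of IL-6 family, NF-kB and complement genes had no gene under 0.05, with medians of 0.015, -0.003 and -0.03. In the IL-1, Toll-like and TNF receptor list Traf3, an adaptor of these receptors, was higher in AT1 (8.51 to 9.02 against 5.8 to 7.69 FPKM, unadjusted p = 0.0187), and 17 of 25 genes were above 0 (median 0.06). Of 15 prostaglandin genes, 10 were above 0 (median 0.05), with Slco2a1 under 0.05. Among 15 interferon-stimulated genes, 13 were above 0 (median 0.04) and Parp9 was higher (0.24, unadjusted p = 0.0363).

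Of the receptors proposed for TCDCA, Gpbar1 was listed at 0.05 FPKM in 1 AT1 library and at 0 in the other 5, and so was not tested. Nr3c1 was at 9.09, 10.35 and 10.16 FPKM in AT1 and at 8.89, 9.48 and 8.74 FPKM in AT01 in its main record (log2 difference 0.11, 95% interval -0.08 to 0.31), and its second record was at 6.26, 14.74 and 3 FPKM against 2.84, 3.76 and 4.86 FPKM, with overlapping groups (log2 difference 0.70, 95% interval -0.56 to 1.95). The second Nr3c1 record was at 2 levels. Of 24 glucocorticoid receptor targets none had an unadjusted p under 0.05 (9 above 0, 15 below, median -0.039). Of 24 cAMP-PKA-CREB targets, 12 were above 0 and 12 below, with a median of 0, and only Bdnf, a neurotrophin, was under 0.05. Bdnf was at 6.83, 0.75 and 7.69 FPKM in AT1 and 0.73, 0.47 and 0.51 FPKM in AT01, a record at 2 levels with 1 AT1 library at the low one (unadjusted p = 0.0425). No immediate early gene among 29 was under 0.05. Of the bile acid and prostaglandin transporters, Slco2a1, which carries prostaglandins into cells, was lower in AT1: 2.87, 3.27 and 2.3 FPKM against 6.14, 5.14 and 4.77 FPKM, 0.526 of the AT01 mean (log2 difference -0.74, SE 0.14, unadjusted p = 0.00187, limma adjusted p = 0.725). FCA (2.91 to 4.67 FPKM) and AT10 (2 to 3.21 FPKM) libraries lay below all AT01 values.

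Genes of stress responses moved singly. In the unfolded protein list Manf was the only one of 30 genes under 0.05 (19 above 0, median 0.045 beside 0.018 over all records). In the list of glycolysis and hypoxia, Bnip3 was the only one of 39, and its relative Bnip3l had the opposite sign (8.24 to 9.37 against 8.42 to 22.05 FPKM, -0.71, unadjusted p = 0.0845). Hspb8, a small heat shock protein, was at 149.56, 100.07 and 91.37 FPKM in AT1 and at 10.15, 96.66 and 7.92 FPKM in AT01, where 1 library lay within the AT1 range, and it was a record at 2 levels (unadjusted p = 0.0465). No other of the 64 heat shock and co-chaperone genes passed, and the list median was -0.005. Rrm2b, a p53 target in nucleotide supply, was higher in AT1 (1.69 to 2.01 against 0.43 to 1.55 FPKM), as was the BH3 protein Bid (4.07 to 4.25 against 2.55 to 3.76 FPKM), while the survival protein Birc5 was lower (18.52 to 20.63 against 21.22 to 25.08 FPKM), with unadjusted p of 0.0278, 0.0263 and 0.0345. None of 38 NRF2 and glutathione genes was under 0.05, Gpx3 included (362.74, 127.47 and 346.08 FPKM in AT1, 378.47, 320.96 and 304.55 FPKM in AT01). The 127.47 FPKM of 1 AT1 library set the negative sign of Gpx3: its log2 difference was -0.40 with that library and 0.09 without it.

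Of 18 zinc transporters and metallothioneins, 13 were above 0 (median 0.065), and the importer Slc39a1 (29.88 to 30.69 against 22.9 to 26.5 FPKM) and the exporter Slc30a5 (26.73 to 31.36 against 22.56 to 25.27 FPKM) were higher in AT1 with unadjusted p of 0.0187 and 0.0232. Slc39a3 was at 9.94 to 10.12 FPKM in AT1 and at 9.24, 2.75 and 7.91 FPKM in AT01 (0.66, unadjusted p = 0.141). It was a record at 2 levels, with FCA (2.8, 3.06 and 2.47 FPKM) at the low one. In the cathepsin and cystatin list no gene was under 0.05. Cstb, a cystatin that inhibits lysosomal proteases, was at 187.17, 187.48 and 174.88 FPKM in AT1 and at 75.93, 80.14 and 190.53 FPKM in AT01, with 1 AT01 library at the AT1 level (0.79, SE 0.36, unadjusted p = 0.0737).

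Among 18 splicing factors 1 gene in each direction had an unadjusted p under 0.05. Srsf9, which binds exonic splicing enhancers, was at 33.01, 35.53 and 30.19 FPKM in AT1 and 16.41, 17.48 and 13.47 FPKM in AT01, 2.08 times as high (log2 difference 1.02, SE 0.12, limma adjusted p = 0.113). It met the criterion of the study but not the adjusted threshold. FCA libraries were at 14.19, 15.7 and 15.56 FPKM and AT10 at 14.97, 29.37 and 14.34 FPKM, so AT1 held all 3 of its libraries at the higher level and AT10 1. Srsf5 was lower in AT1 (61.61 to 67.51 against 73.95 to 76.06 FPKM, -0.20, unadjusted p = 0.0238).

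Differences in growth and core machinery genes were small. Ribosomal proteins of the cytosol were above 0 in 18 of 75 (median -0.063) and subunits of oxidative phosphorylation in 25 of 77 (median -0.065). Leaving out each library moved these medians between -0.162 (without AT01 replicate 3) and -0.016 (without AT1 replicate 3) and between -0.156 and -0.015 (without the same libraries), and the list medians of AT1 and AT01 libraries overlapped. LOC100363502, whose product the study names as cytochrome c, was at 138.31, 129.66 and 56.19 FPKM against 69.82, 133.07 and 57.84 FPKM, with overlapping groups (log2 difference 0.30, SE 0.46). Rps16 (324.28 to 364.61 against 384.26 to 417.12 FPKM), Rpl27 (273.59 to 358.3 against 379.33 to 411.81 FPKM) and Ndufb9 (102.65 to 121.4 against 125.09 to 137.61 FPKM) were lower in AT1 with unadjusted p of 0.042, 0.0436 and 0.0262. So was the proteasome subunit Psmb6 (67.96 to 73.94 against 80.38 to 85.01 FPKM, unadjusted p = 0.0129), while the 45 proteasome genes had a median of -0.008. Among the tRNA synthetases, Wars, the tryptophan enzyme, was higher in AT1 at 17.6, 23.2 and 22.1 against 14.28, 11.41 and 12.59 FPKM (0.67, unadjusted p = 0.00293), and the scaffold Aimp2 was lower (-0.26, unadjusted p = 0.0192). In DNA replication Gins2, a part of the replicative helicase, was lower (1.67 to 1.95 against 2.45 to 4.56 FPKM, -0.75, unadjusted p = 0.0116), and the list of 48 had a median of -0.041. Racgap1, of the cytokinetic spindle, was higher (0.23, unadjusted p = 0.0399) among 59 mitotic genes with a median of 0.019. Nsdhl of sterol synthesis was higher (0.53, unadjusted p = 0.0429). In the secretory pathway list 3 of 50 genes were higher, Arf4, Sec22a (0.39, unadjusted p = 0.0147) and the signal peptidase subunit Sec11c (0.35, unadjusted p = 0.0213), and none lower.

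**Figure D5:**
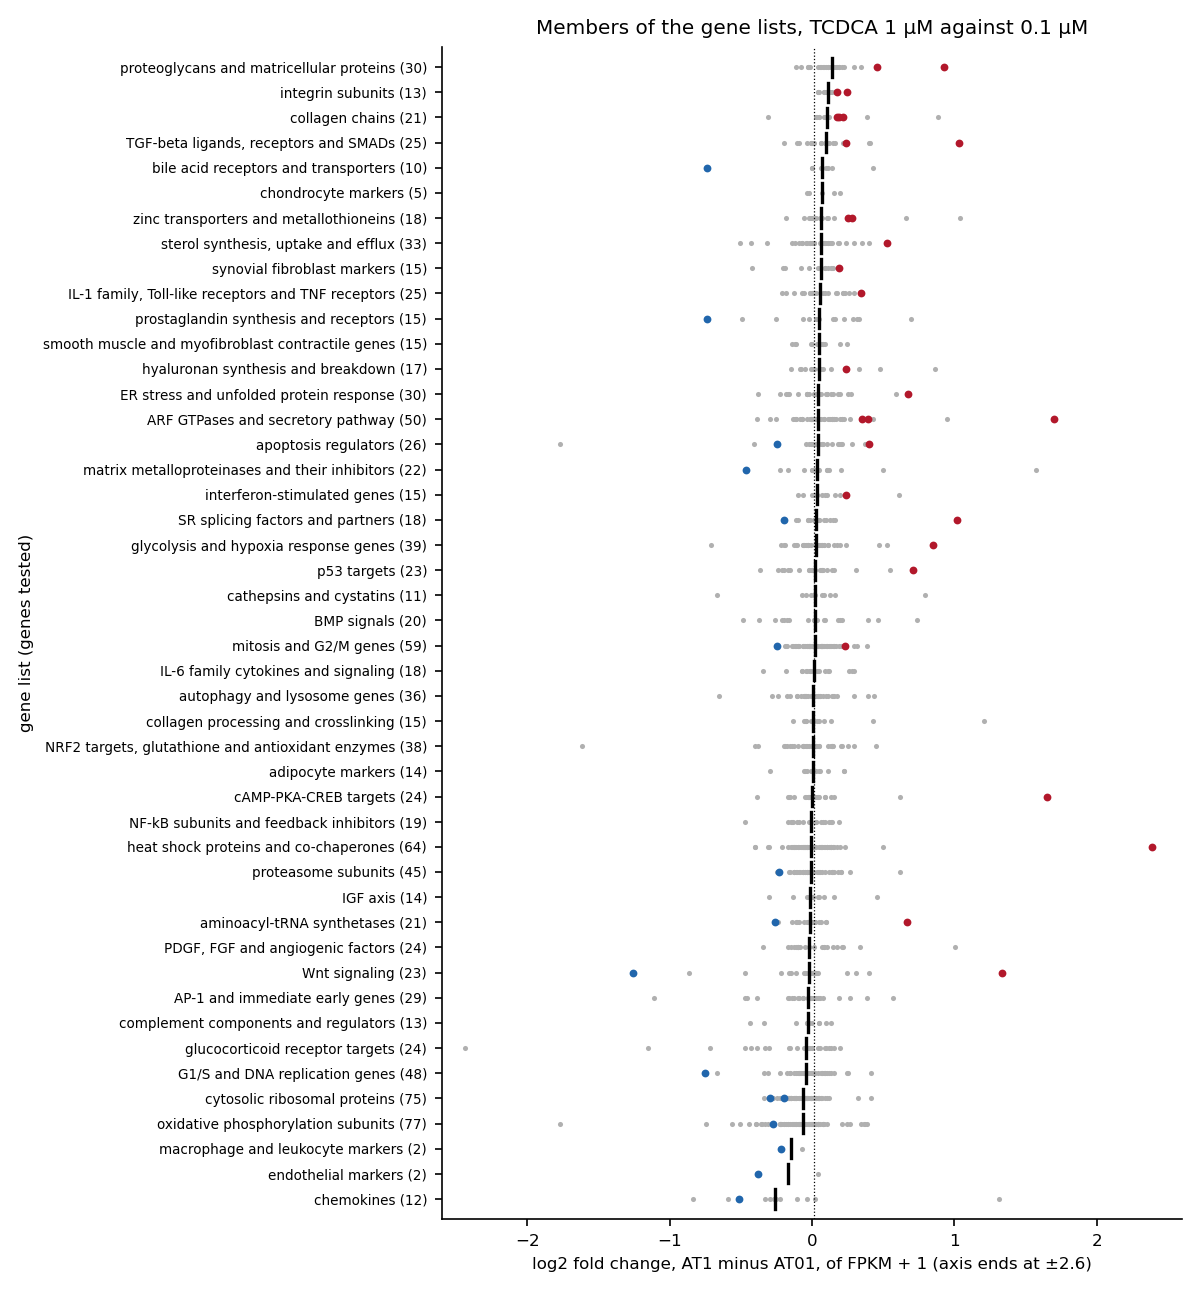
Grey points are the log2 fold changes of AT1 against AT01 of the genes of 46 lists, red and blue points those with an unadjusted p under 0.05, black bars the list medians, and the dotted line the median of all records. Medians lie between -0.26 and 0.14, and 1 ribosomal protein record, Rpl31l4 at -4.27, lies beyond the axis.

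Among markers of other cell types, Cd68, of macrophages and lysosomes, was at 1.66 to 1.98 FPKM in AT1 and 2.23 to 2.29 FPKM in AT01 (-0.22, unadjusted p = 0.04), and the only other leukocyte marker tested, Cd14, overlapped. The endothelial marker Flt1 was at 6.67 to 8.41 against 9.19 to 11.89 FPKM (-0.38, unadjusted p = 0.0278), while summed endothelial markers were between 29.32 and 30.52 FPKM in AT1 and between 30.3 and 35.69 FPKM in AT01. Cartilage and adipocyte markers had no gene under 0.05 among 5 and 14 tested.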

How the data were processed

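Poly(A) RNA of rat FLS was sequenced in 12 libraries, and the 3 AT1 and 3 AT01 libraries were compared. The authors aligned reads with HISAT2, assembled and merged transcripts with StringTie and deposited FPKM per gene record, normalized for length and mapped fragments; no other scaling between libraries and no genome build is given in the sources used here. The submitters' processing notes also name cutadapt and edgeR. Read counts were not used here, so the depth and precision behind each FPKM value are unknown.

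Values were transformed as log2(FPKM + 1), and limma 3.58.1 (R 4.3.3; lmFit, then eBayes with a trended prior) was run on the 6 libraries alone, for the 11611 records averaging 1 FPKM or more across all 12 libraries, with p adjusted over all records. The variance of each record was pooled over both groups and moderated toward the prior, also where 1 group had no spread. The fit was tested on simulated data with 200 changed records. Named were the records with an adjusted p under 0.05, the 10 largest differences in each direction among records meeting the criterion of the study that neither overlapped nor lay at 2 levels, the 2 members of smallest p under 0.05 in each gene list, and the genes the study chose. One gene named by this rule is not reported here. A list gene was represented by its most abundant record. The comparison, the 46 lists and the definition of 2 levels were chosen with earlier results of these data known. Alternatives changed the pseudocount (0.1), the filter (none, or 10 FPKM), scaling, summing by gene name, the fit (12 libraries, a Ballgown-style F test, replicate numbers as a block), records with zeros, records at 2 levels, and each library. Promoter windows were read from RefSeq GRCr8 with Python 3.11.15 and pandas 2.3.3.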

Additional observations from a re-analysis of the deposited data

How the results depend on the processing

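The 66 records meeting the criterion of the study became 26 (16 higher and 10 lower in AT1) with a mean of at least 10 FPKM, 28 (15 and 13) with the F test in the manner of Ballgown and 39 (15 higher) without records at 2 separate levels; leaving out each library gave 55 to 81 (higher 21 to 43, the lowest without AT1 replicate 1). The 15 with an adjusted p under 0.05 became 7 with a mean of at least 10 FPKM, 2 in 1 fit over all 12 libraries, 5 with the F test, 9 with records above 0 in all 6 libraries, and 11 to 25 leaving out each library (24 without AT01 replicate 1 and 25 without AT01 replicate 3). Without records at 2 levels limma gave 0 at adjusted p under 0.05 and 386 at unadjusted p under 0.05. The 8 records at 2 levels had the smallest p of the 15, and the adjustment ranks p over all records. The adjusted p of the other 7 therefore depended on them. How much of the loss came from this ranking was not tested. LOC108351137 kept an adjusted p under 0.05 in all 14 alternatives that tested it, Arl6ip5 in 7 of 16, Bnip3 in 6 of 16, Cyr61 in 5 of 16, Manf in 4 of 16, Ppp2r5a in 4 of 15 and Ctdsp1 in 0 of 14, with directions kept.

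Records with unadjusted p under 0.05 (398) became 769 with no filter and 142 with a mean of at least 10 FPKM, and the list genes (42) became 25 with the latter and 26 to 68 leaving out each library (lowest without AT1 replicate 3, highest without AT01 replicate 3). The share without overlap (8.6%) was 15.5% to 22% with 1 library less, where fewer values have to be ordered. Summing FPKM by gene name turned Pdzrn3 to 0.406 and Mcfd2 to -0.17. Leaving out each library gave -0.024 to 0.15 for Gapdh (-0.023 without AT01 replicate 3) and -0.662 to 0.088 for Gpx3. Of 1158 values of named genes under alternatives, 1054 kept direction and side of the threshold. Most of those 1054 belonged to genes that had not passed the adjusted threshold in the main fit. The 92 values that no longer passed all belonged to the 15 records with an adjusted p under 0.05. Another 7 newly passed and 5 reversed.

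Same-numbered libraries did not deviate together (correlations -0.11, 0.0037 and 0.094 over records), and the study calls the numbers repeats without naming a shared batch, so they were not taken to pair the libraries; with the replicate block 57 records met the criterion and 2 had an adjusted p under 0.05. Scaling by the median of ratios moved the median of all records from 0.018 to 0.0045.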
